A study of Arabidopsis thaliana with 12 samples.

Results

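The enzymes described here modify pectin, the gel-forming polysaccharide of the primary cell wall. They were taken as every row of the gene table whose description holds the word pectinesterase, pectate lyase, polygalacturonase or pectin acetylesterase, which gave 125 of 32954 genes. By their descriptions these were 62 pectinesterases, 26 pectate lyases, 16 polygalacturonases, 11 pectin acetylesterases and 10 inhibitors of pectinesterases. Genes of the same families that carry another description are not among them.

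Homogalacturonan, the main pectin, leaves the Golgi apparatus highly methylesterified and partly acetylated. In the wall, pectinesterases (pectin methylesterases, PME) remove methyl groups and are held in check by small inhibitor proteins (PMEI), and pectin acetylesterases (PAE) remove acetyl groups. The demethylated chain can bind calcium and stiffen the wall, or it can be cut by pectate lyases and polygalacturonases, which loosen it. Many genes of these families are known from pollen, fruit opening and organ shedding, whereas others act in growing leaves and stems.

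RNA of leaves was sequenced from *Arabidopsis thaliana* (Col-0), in 4 biological replicates of each of 3 genotypes. The overexpressor, line #5, carries the cDNA of *pGlcT2*, a sugar transporter of the plastid envelope, under the CaMV 35S promoter. It is a single line, and the study's text gives the *glct2* line as its basis while its methods mention that background only for a complemented line. The knock-out *glct2* (SALK_052078) carries a T-DNA in intron 1 of *pGlcT2*, and wild types carried no construct. Plants of all 3 genotypes were kept in short days for 24 days and afterwards for another 10 to 12 days under light that was never switched off, at 100 to 120 µmol quanta m-2 s-1. Both mutants were set against the same 4 wild-type libraries, so their comparisons are not independent of each other.

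Levels are FPKM, fragments scaled to the length of the gene and to a factor of the library, from 17448191 to 24276381 reads per library. This factor was not the read sum alone. For a gene of 1 kb, 1 read equalled 0.0553 FPKM in replicate 1 of wild types, with 19035449 reads. In replicate 2 of the overexpressor, with 19006604 reads, it equalled 0.0498 FPKM. The *pGlcT2* mRNA was at 180 to 237 FPKM in the overexpressor, at 2.65 to 3.89 FPKM in *glct2* and at 8.26 to 10.1 FPKM in wild types. The libraries were thus ordered as their labels state, although the *glct2* mean was still 0.332 of the wild-type mean. By semi-quantitative RT-PCR the study found this mRNA nearly absent in *glct2*. Of the leaf mesophyll markers, *RBCS1A* averaged 5809 FPKM in the overexpressor, 7557 FPKM in *glct2* and 8662 FPKM in wild types. The root hair genes *RHD6* and *COBL9* and the pollen genes *ANX2*, *TIP1;3* and *DUO1* were at or near 0 in all 3 genotypes, whereas *SCR* of the root list was at 11.0 to 11.5 FPKM in the overexpressor, 8.15 to 11.6 FPKM in *glct2* and 10.5 to 12.3 FPKM in wild types. The 5 root markers summed to 15.4 to 17.4 FPKM in the overexpressor, 15.6 to 21.0 FPKM in *glct2* and 18.1 to 22.4 FPKM in wild types. Of these markers 2 could be tested, and 1 was called lower in the overexpressor against wild types and 1 against *glct2*. *ANX1* of the pollen list was at 2.18 to 2.83 FPKM in the overexpressor, 1.94 to 2.21 FPKM in *glct2* and 1.93 to 2.21 FPKM in wild types. The shoot meristem gene *STM* was at 5.17 to 6.67 FPKM in the overexpressor, 4.97 to 8.22 FPKM in *glct2* and 6.65 to 10.6 FPKM in wild types. *WUS* and *CLV3* of the same list were at or near 0. The 3 markers of dividing cells summed to 13.4 to 21.0, 11.6 to 17.1 and 12.5 to 19.5 FPKM in these genotypes. None of these meristem and dividing-cell markers was called. In these bulk samples fewer cells of a type and less RNA per cell cannot be told apart.

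For 3 members the 5′ flank in the TAIR10.1 assembly is shown. They are *PAE2*, the largest rise, *PME3*, the most abundant of all members, and *PME17*, called lower in *glct2*. The call of *PME17* was lost in 11 alternative analyses, as given below. The 3 genes lie on the minus strand, and each sequence is written 5′ to 3′ on the strand of the gene and ends at the base before the annotated gene start. The windows are chr1:21329945-21330016 for *PAE2*, chr3:4775259-4775508 for *PME3* and chr2:18646607-18646856 for *PME17*. They span 250 bases except for *PAE2*, whose window stops after 72 bases at the next gene, *At1g57600*. Capitals mark matches to short motifs that were searched on both strands. The first is the core of the W-box, the site of WRKY factors, with the letters TTGAC. The second is the G-box, bound by factors of the bZIP and bHLH families, with the letters CACGTG. The third is an element of sugar-regulated promoters with the letters TATCCA. The last is the TATA box, which places the start of transcription, with the letters TATAAA. No match overlapped another.
PAE2: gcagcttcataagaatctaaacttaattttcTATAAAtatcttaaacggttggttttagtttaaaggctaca
PME3: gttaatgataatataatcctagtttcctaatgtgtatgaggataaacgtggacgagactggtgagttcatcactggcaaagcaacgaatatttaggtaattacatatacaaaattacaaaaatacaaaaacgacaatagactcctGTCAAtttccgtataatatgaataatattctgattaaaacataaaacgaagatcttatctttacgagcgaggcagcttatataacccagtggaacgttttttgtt
PME17: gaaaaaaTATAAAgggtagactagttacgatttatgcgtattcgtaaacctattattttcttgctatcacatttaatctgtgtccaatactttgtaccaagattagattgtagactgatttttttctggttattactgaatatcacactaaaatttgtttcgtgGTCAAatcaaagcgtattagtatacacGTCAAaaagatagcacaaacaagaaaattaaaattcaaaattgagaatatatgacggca
Counted to the first base of the match, a TATA box lay 41 bases before the gene start in *PAE2* and 243 bases before it in *PME17*. The W-box core lay 86 and 59 bases before the start of *PME17* and 105 bases before that of *PME3*, and neither the G-box nor the sugar element was found in these windows. Such matches are common. Of the windows of 250 bases before 27419 protein-coding genes, 44.9% held the W-box core, 6.48% the G-box, 13.6% the sugar element and 47.4% the TATA box. Among the 56 members that could be tested, 22 windows held the W-box core, 3 the G-box, 7 the sugar element and 25 the TATA box, which is 39.3%, 5.36%, 12.5% and 44.6%.

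Only part of the enzymes was expressed in these leaves. Of the 125 members, 96 had at least 1 read in at least 1 library and 29 had none. Those 29 comprise 18 pectinesterases, 4 pectate lyases, 4 polygalacturonases, 2 inhibitors and 1 acetylesterase. Among them are *PME4*, *PME26*, *PME48*, *PME49*, *PME59* and *PME60*, and *VGD1*, which acts in pollen tubes, had 1 read in all. Taking 3 reads in the shallowest library as the limit for a count of 0, their levels lie below 0.0563 to 0.891 FPKM, depending on gene length, and this limit covers counting error only. A level of at least 1 FPKM in at least 4 libraries, the condition for a test, was met by 56 members. These were 18 of 62 pectinesterases, 16 of 26 pectate lyases, 10 of 11 acetylesterases, 6 of 16 polygalacturonases and 6 of 10 inhibitors. The other 40 detected members did not exceed 2.61 FPKM in any library.

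The level within a family was held by few genes. *PME3* alone made up 31.1 to 46.0% of the summed pectinesterase level in the overexpressor, 46.0 to 54.1% in *glct2* and 49.2 to 52.0% in wild types. *PGL3*, whose protein resembles the non-catalytic beta subunit of a polygalacturonase, made up 64.1 to 73.5% of the polygalacturonase level in the overexpressor, 77.9 to 83.2% in *glct2* and 76.9 to 84.7% in wild types. *PAE7* gave 19.4 to 33.6% of the acetylesterase level in the overexpressor, 42.4 to 46.0% in *glct2* and 43.3 to 46.7% in wild types. For all 3 genes the share in the overexpressor lay below the wild-type range in every library.

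The members lie partly in tandem. Of the protein-coding genes, 17 pairs of direct neighbours were both members, involving 33 members, and 12 of these pairs had the same orientation. In 8 pairs neither gene was tested, in 7 pairs 1 gene and in 2 pairs both. The neighbours often differed in level. *PME3* was at 267.5 FPKM in wild types, while *PME26*, 1896 bases away, had no read. *PME12* was at 37.2 FPKM and *PME13* at 0.0172 FPKM in wild types, with 1419 bases between them. *PME1* was at 42.1 FPKM and *PME2*, 320 bases away, at 0.697 FPKM in wild types.

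**Figure D1:**
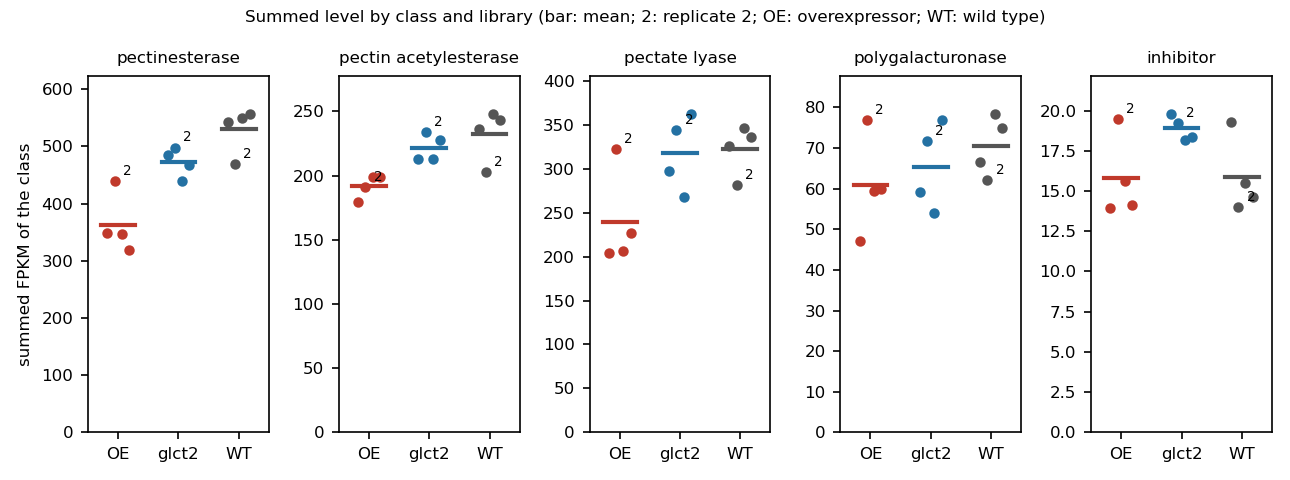
Summed FPKM of the members of each class (vertical axis) in each library of the overexpressor (OE), *glct2* and wild types (WT). Points are libraries, bars are means of 4 libraries and replicate 2 is marked; the overexpressor's replicate 2 has the highest pectinesterase, pectate lyase and polygalacturonase sums of its genotype.

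Summed over all members, the level was 794, 1049, 827 and 818 FPKM in the overexpressor, 1074, 1167, 992 and 1153 FPKM in *glct2* and 1191, 1029, 1238 and 1225 FPKM in wild types, in the order of replicates 1 to 4. Replicate 2 of the overexpressor was the highest of its genotype and replicate 2 of wild types the lowest of its own, and the groups overlapped through these libraries. Both were left out in a further fit that was chosen after seeing the data. In it, 23 of 55 members were called lower in the overexpressor than in wild types and 4 higher. Of all tested genes 20.9% were then lower and 19.5% higher. Because these libraries stood out by the sums of the members themselves, leaving them out favours falls, and the counts are no separate support. The pectinesterases summed to 363 ± 52.6 FPKM in the overexpressor, 473 ± 25.3 FPKM in *glct2* and 530 ± 40.9 FPKM in wild types (SD, n = 4 each). The pectate lyases summed to 240 ± 55.9 FPKM in the overexpressor, 318 ± 43.2 FPKM in *glct2* and 322 ± 28.6 FPKM in wild types (SD, n = 4 each). The inhibitors, in contrast, summed to 15.8 ± 2.56 FPKM in the overexpressor, 18.9 ± 0.758 FPKM in *glct2* and 15.9 ± 2.37 FPKM in wild types (SD, n = 4 each).

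In the overexpressor, most members that changed fell. Of 56 tested members, 19 were lower (33.9%) and 5 were higher (8.93%) than in wild types, whereas 19.9% of all 18354 tested genes were called lower and 18.7% higher. A call is an adjusted p under 0.05 in a fit of log2(FPKM + 1) by limma with Benjamini-Hochberg adjustment over all tested genes. The median log2 fold change of the members was -0.17, against 0.00 for all tested genes. The falls comprised 8 of 18 pectinesterases, 6 of 16 pectate lyases, 3 of 10 acetylesterases, 1 of 6 polygalacturonases and 1 of 6 inhibitors. These classes follow the descriptions. The polygalacturonase that fell was *PGL3*, whose protein resembles a non-catalytic subunit, and the pectinesterases that fell include *sks9*, related to a multicopper oxidase. In polygalacturonases and in inhibitors this share, 16.7% each, lay below the 19.9% of all tested genes. The median log2 fold change of the polygalacturonases was 0.17. The rises were 1 pectinesterase, 1 pectate lyase, 1 acetylesterase and 2 inhibitors.

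The falls lay mainly among the abundant members. Of 24 members with a wild-type mean of at least 10 FPKM, 12 fell (50.0%) and 1 rose (4.17%), with a median log2 fold change of -0.51. Among all tested genes above this level 25.8% were lower, 16.2% were higher and the median was -0.04. Of the 32 members below 10 FPKM, 7 fell (21.9%) and 4 rose (12.5%), with a median of 0.02. Among all tested genes below this level, 13.0% were lower, 21.7% were higher and the median was 0.06. The wild-type libraries enter both the level and the fold change here.

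**Figure D2:**
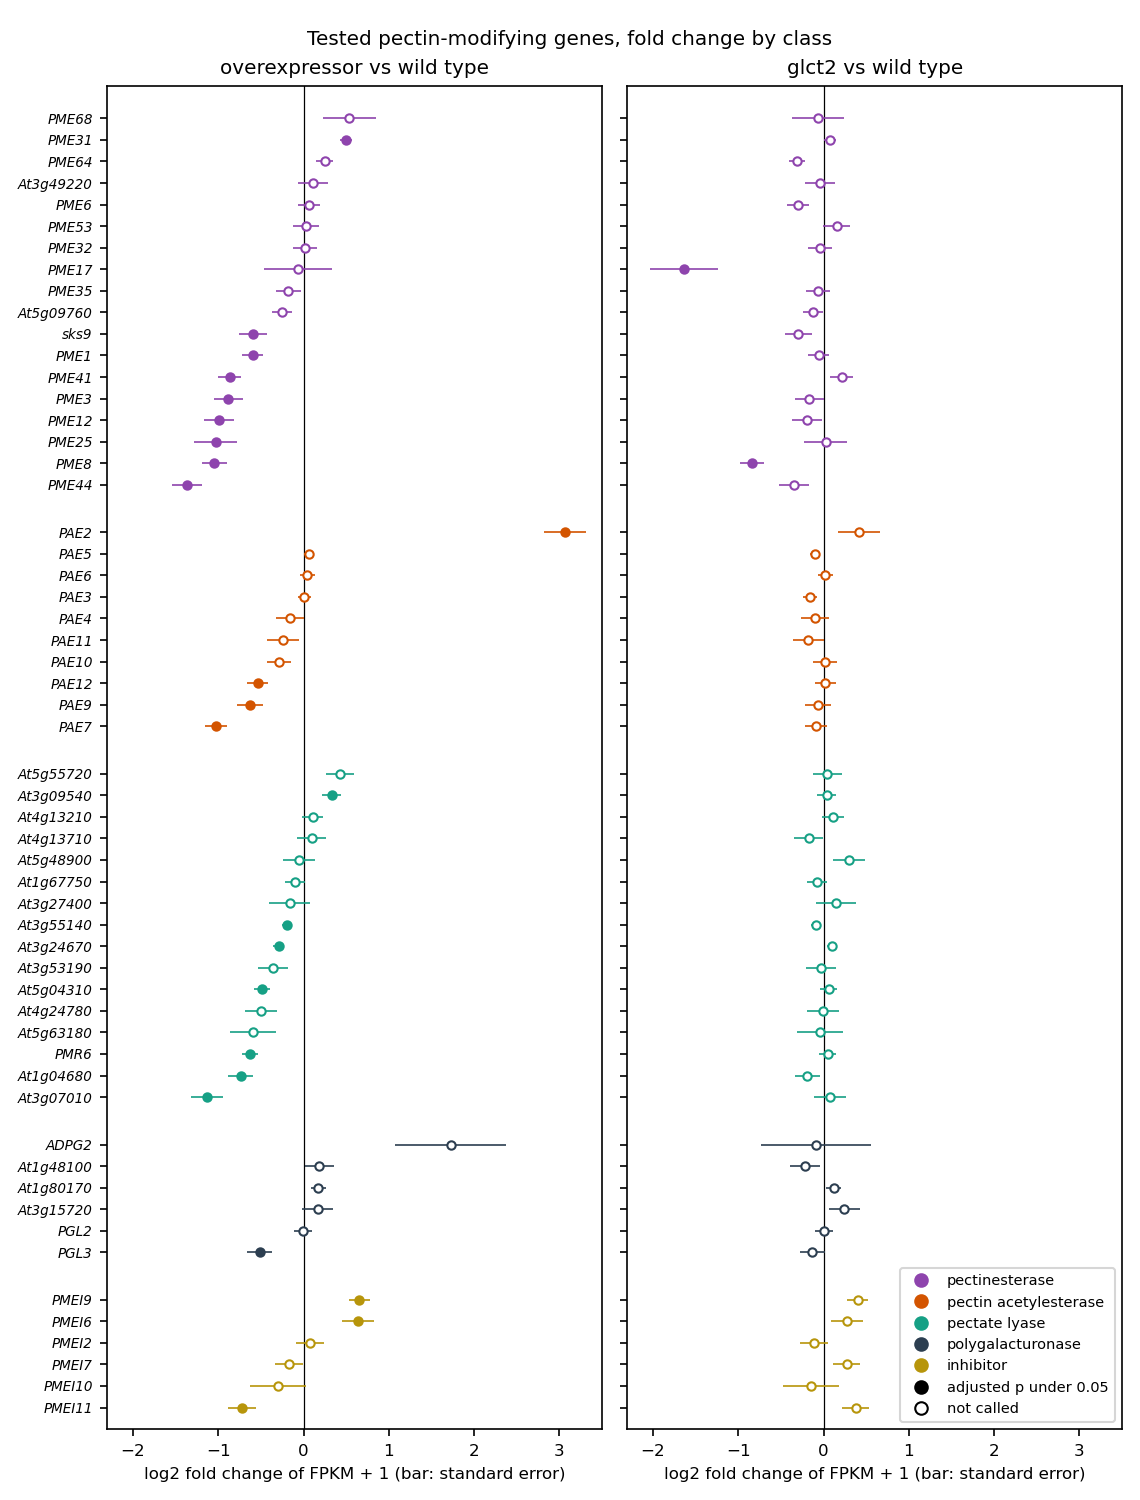
Log2 fold change of FPKM + 1 (horizontal axis, bar: standard error) of the 56 tested members by class, in the overexpressor against wild types (left) and in *glct2* against wild types (right). Filled points have an adjusted p under 0.05; in the overexpressor 19 lie to the left of 0 and 5 to the right, in *glct2* 2 lie to the left and 0 to the right.

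Among the acetylesterases, *PAE2* showed the largest change of the tested members. It was at 30.4, 20.4, 42.3 and 57.8 FPKM in the overexpressor, at 4.22, 4.46, 4.82 and 5.50 FPKM in *glct2* and at 3.37, 4.39, 2.53 and 3.15 FPKM in wild types. Every overexpressor library lay above every library of the other genotypes, and the overexpressor libraries spread widely among themselves. The mean of 37.7 ± 16.1 FPKM in the overexpressor was 11.2 times the wild-type mean of 3.36 ± 0.773 FPKM (SD, n = 4 each), with a log2 fold change of 3.07 (SE, the standard error, 0.25, adjusted p = 4.33e-06 from limma). The value in *glct2* did not pass the test (0.41, adjusted p = 0.355). Its upstream neighbour *At1g57600* ranged from 6.93 to 9.22 FPKM in overexpressor libraries and from 7.03 to 8.08 FPKM in wild-type ones.

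*PAE7*, the most abundant acetylesterase in all 3 genotypes, went the other way. Its level was 51.3, 64.3, 51.7 and 38.7 FPKM in the overexpressor, 97.9, 103.6, 95.1 and 96.5 FPKM in *glct2* and 110.3, 87.6, 111.1 and 109.7 FPKM in wild types. The overexpressor libraries were all lower than the rest, and *glct2* overlapped with wild types. On the log2 scale the change was -1.03 in the overexpressor (SE 0.13, adjusted p = 7.67e-05) and -0.08 in *glct2* (adjusted p = 0.754). *At4g19400* overlaps *PAE7* over 1097 bases on the same strand and had no reads in the overexpressor and wild types, so the split of reads between them is uncertain. *PAE12* fell by 0.54 on the log2 scale (adjusted p = 0.00445), with 34.3 ± 5.80 FPKM in the overexpressor and 50.2 ± 6.52 FPKM in wild types (SD, n = 4 each). *PAE9*, which with *PAE8* is known to set the acetate content of leaf pectin, fell by 0.63 (adjusted p = 0.00614). *PAE5* and *PAE11* were at 23.1 and 18.8 FPKM in the overexpressor and at 22.1 and 21.9 FPKM in wild types, with log2 fold changes of 0.06 and -0.24 that did not pass the test.

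With these values *PAE2* ranked among the most abundant acetylesterases only in the overexpressor libraries. Its mean of 37.7 FPKM there stood between 51.5 FPKM of *PAE7* and 34.3 FPKM of *PAE12*. In wild types its 3.36 FPKM was the lowest mean of the 10 tested acetylesterases. The sum of the family was 192 ± 9.19 FPKM in the overexpressor, 222 ± 10.6 FPKM in *glct2* and 232 ± 20.6 FPKM in wild types (SD, n = 4 each).

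**Figure D3:**
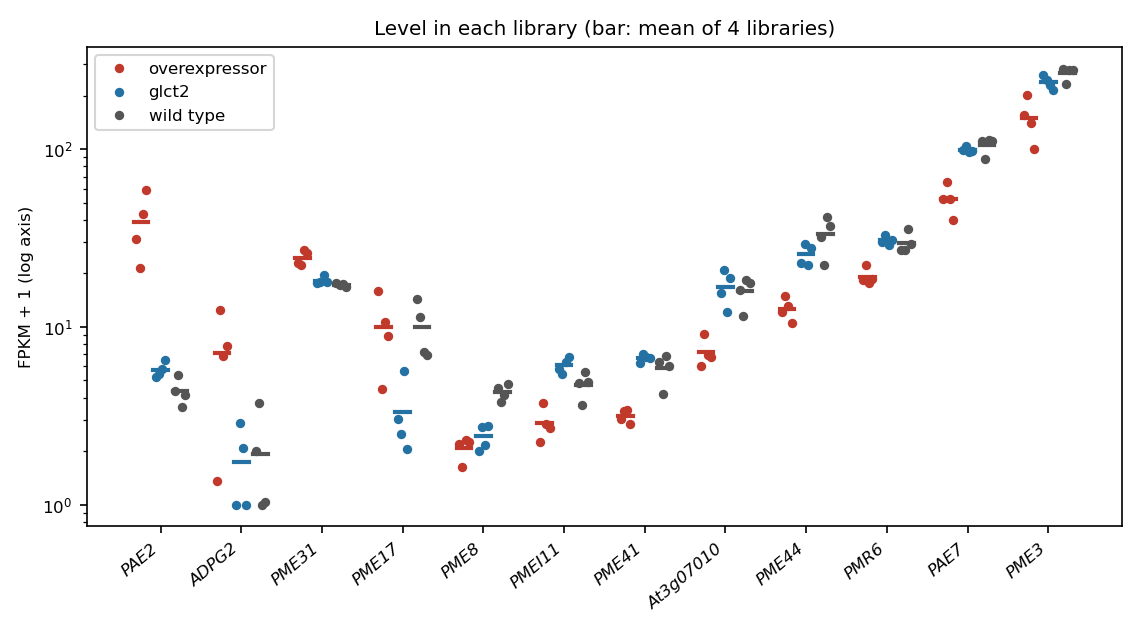
FPKM + 1 (vertical log axis) of 12 members in each of the 4 libraries of the overexpressor, *glct2* and wild types; bars are means. *PAE2* and *PME31* are higher in all overexpressor libraries than in all wild-type libraries, *PME17* is low in *glct2*, and *PME8* is low in both mutants.

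Of the pectinesterases, *PME3*, known from interactions with nematodes and fungi, was at 154, 202, 139 and 98.8 FPKM in the overexpressor, at 262, 245, 229 and 215 FPKM in *glct2* and at 283, 231, 277 and 279 FPKM in wild types. The overexpressor libraries were below all others, although replicate 2 of the overexpressor and replicate 2 of wild types came close to each other. The log2 fold change in the overexpressor was -0.88 (SE 0.17, adjusted p = 0.00159) and in *glct2* -0.17 (adjusted p = 0.616).

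*PME44* had the largest fall in the overexpressor among the tested members on the scale of log2(FPKM + 1), whereas by the ratio of mean FPKM *PME8* fell further, with 0.331 against 0.363 for *PME44*. It was at 11.1, 13.9, 12.1 and 9.56 FPKM in the overexpressor, 21.9, 28.4, 21.2 and 26.9 FPKM in *glct2* and 31.0, 21.4, 40.7 and 35.8 FPKM in wild types. No overexpressor library reached the lowest wild-type library, and the log2 fold change in the overexpressor was -1.36 (SE 0.17, adjusted p = 9.7e-05). *PME12* fell to 18.8 ± 5.85 FPKM in the overexpressor, against 37.2 ± 5.59 FPKM in wild types (SD, n = 4 each), and the log2 fold change was -0.99 (adjusted p = 0.000954). *PME1* fell by 0.60 on the log2 scale (adjusted p = 0.00221) and *PME25* by 1.03 (adjusted p = 0.0069). *PME41*, known from the response to chilling, was at 2.04, 2.34, 2.43 and 1.83 FPKM in the overexpressor, 5.24, 6.05, 5.75 and 5.68 FPKM in *glct2* and 5.31, 3.19, 5.85 and 5.05 FPKM in wild types. Its groups did not overlap between overexpressor and wild types (log2 fold change -0.87, adjusted p = 0.000321).

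*PME31*, described for its part in salt tolerance, was the pectinesterase that rose. Its level was 21.8, 21.2, 26.1 and 24.9 FPKM in the overexpressor, 16.6, 16.9, 18.6 and 16.9 FPKM in *glct2* and 16.8, 16.2, 16.4 and 15.7 FPKM in wild types. All overexpressor libraries were above all others, with a log2 fold change of 0.50 (SE 0.07, adjusted p = 0.00016). *PME35*, which acts in the supporting tissue of the stem, was at 15.1 ± 2.98 FPKM in the overexpressor and 17.0 ± 1.97 FPKM in wild types (SD, n = 4 each), and *At3g49220* at 32.8 ± 9.74 FPKM in the overexpressor and 29.6 ± 3.47 FPKM in wild types (SD, n = 4 each). Neither passed the test, nor did *PME68* (*At5g47500*, PME5 in RefSeq), whose overexpressor libraries ranged from 16.2 to 42.4 FPKM and whose wild-type libraries ranged from 13.4 to 29.9 FPKM. The gene *sks9*, related to the multicopper oxidase *SKU5* but described as a putative pectinesterase, fell by 0.59 (adjusted p = 0.0126) and is named after its value was seen.

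In *glct2* few members changed. No member was called higher and 2 were called lower, *PME17* and *PME8*, that is 3.57% of 56, whereas 1.95% of all tested genes were higher and 2.62% lower than in wild types. At an unadjusted p under 0.05, 2 members were higher and 4 lower, counts that are not corrected for the number of genes tested and are not set here against all tested genes. With voom on the recovered reads 0 members were higher and 1 lower (1.79%), while of all 18354 tested genes 345 were higher and 442 lower (2.41%). The median log2 fold change of the members was -0.04, against 0.00 for all tested genes.

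*PME17*, which is known from roots and from leaves under attack, was at 15.0, 3.49, 9.61 and 7.91 FPKM in the overexpressor, at 2.03, 1.5, 4.65 and 1.06 FPKM in *glct2* and at 13.4, 10.4, 6.21 and 5.91 FPKM in wild types. All *glct2* libraries were below all wild-type libraries, while the overexpressor overlapped with both other genotypes. The log2 fold change was -1.63 in *glct2* (SE 0.40, adjusted p = 0.04) and -0.07 in the overexpressor (adjusted p = 0.913). The overexpressor differed from *glct2* by 1.57 (adjusted p = 0.00978). The call in *glct2* was lost in 11 of 23 alternative analyses, with adjusted p-values of 0.0544 to 0.0998. In 8 of them 1 library was left out: replicate 3 of the overexpressor, replicate 1, 2 or 4 of *glct2*, or any of the 4 wild-type replicates.

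*PME8* was low in both mutants. It was at 1.21, 0.62, 1.3 and 1.25 FPKM in the overexpressor, at 1.00, 1.74, 1.17 and 1.78 FPKM in *glct2* and at 3.55, 2.76, 3.16 and 3.74 FPKM in wild types. No mutant library reached the wild-type range. On the log2 scale the change was -1.05 in the overexpressor (SE 0.15, adjusted p = 0.000168) and -0.84 in *glct2* (SE 0.15, adjusted p = 0.0101), and both use the same wild-type libraries. The difference between the mutants, -0.21, did not pass the test (adjusted p = 0.291).

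The pectate lyases cut demethylated homogalacturonan by elimination. *At3g07010* was at 5.05, 8.18, 5.91 and 5.76 FPKM in the overexpressor, 14.6, 19.9, 11.2 and 17.8 FPKM in *glct2* and 15.0, 10.6, 17.3 and 16.6 FPKM in wild types. The overexpressor stood below both other genotypes without overlap (log2 fold change -1.13 against wild types, SE 0.19, adjusted p = 0.000604). *PMR6*, whose loss makes leaves resistant to powdery mildew, fell to 18.2 ± 2.05 FPKM in the overexpressor, against 28.8 ± 4.03 FPKM in wild types (SD, n = 4 each), with a log2 fold change of -0.63 (adjusted p = 0.000313). *At1g04680* fell by 0.74 (adjusted p = 0.00193), with 29.2 ± 5.69 FPKM in the overexpressor and 49.0 ± 5.47 FPKM in wild types (SD, n = 4 each). *PMR6*, *At3g07010* and *At3g09540* overlap another gene on the opposite strand, and the strand setting of the counting is not given in the sources used here.

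The most abundant pectate lyases did not pass the test, and their overexpressor libraries were far apart. *At4g24780* was at 36.5, 70.4, 38.2 and 49.0 FPKM in the overexpressor and at 70.8, 57.3, 72.0 and 68.0 FPKM in wild types (log2 fold change -0.50, adjusted p = 0.0531). *At5g63180* was at 42.9, 79.6, 34.6 and 24.8 FPKM in the overexpressor and at 70.6, 49.6, 66.9 and 67.6 FPKM in wild types (log2 fold change -0.59, adjusted p = 0.101). In both genes replicate 2 of the overexpressor lay at the level of wild types or above, and without this library both were called lower, with adjusted p-values of 0.0034 and 0.0022. *At3g09540* rose by 0.33 (adjusted p = 0.0328), but its libraries overlapped and the call was lost in 7 of 23 alternatives. The remaining called pectate lyases, named after their values were seen, were *At5g04310* (-0.49), *At3g24670* (-0.29) and *At3g55140* (-0.19).

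Of the polygalacturonases, *PGL3* fell to 40.4 ± 6.37 FPKM in the overexpressor, against 58.1 ± 8.36 FPKM in wild types (SD, n = 4 each), and the log2 fold change was -0.51 (adjusted p = 0.0141). *ADPG2*, which opens fruits and sheds flower organs together with *ADPG1* and *QRT2*, was at 0.365, 11.5, 5.84 and 6.86 FPKM in the overexpressor, at 0, 1.87, 1.07 and 0 FPKM in *glct2* and at 1.01, 2.71, 0 and 0.0284 FPKM in wild types. The overexpressor was higher in 3 libraries, whereas replicate 1 lay within the range of the other genotypes. Its log2 fold change of 1.72 against wild types did not pass the test (SE 0.65, adjusted p = 0.052), and the difference of 1.82 to *glct2* did (adjusted p = 0.0472). The latter call was lost in 15 of the 24 alternatives in which the gene was tested, counting those chosen after seeing the data. *ADPG1*, below the condition for a test, had 155 reads in the 4 overexpressor libraries together, 0 in those of *glct2* and 23 in those of wild types. *QRT2* had 70 reads in the overexpressor, 31 in *glct2* and 31 in wild types.

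The summed level of the 5 flower organ genes *AP1*, *AP3*, *PI*, *AG* and *SEP3* was 2.19, 6.77, 4.27 and 4.88 FPKM in the overexpressor, 1.65, 2.13, 1.76 and 3.35 FPKM in *glct2* and 2.10, 2.13, 2.62 and 1.26 FPKM in wild types. Replicate 1 was thus the lowest overexpressor library for *ADPG2*, *ADPG1* and these markers, and replicate 2 the highest. None of the 5 was called in the overexpressor, where 1 of them, *AP1*, could be tested. Their part in the values of *ADPG1* and *ADPG2* was not tested. The other tested polygalacturonases, *At1g80170*, *At1g48100*, *PGL2* and *At3g15720*, had means of 1.1 to 4.52 FPKM in overexpressor and 0.867 to 3.90 FPKM in wild-type libraries and were not called.

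The inhibitors moved in both directions. *PMEI9* was at 2.48, 3.26, 2.48 and 3.24 FPKM in the overexpressor, 2.49, 2.30, 2.12 and 2.04 FPKM in *glct2* and 2.03, 1.35, 1.44 and 1.07 FPKM in wild types. The libraries of both mutants lay above those of wild types, in *glct2* by a narrow margin, with log2 fold changes of 0.65 in the overexpressor (adjusted p = 0.00134) and 0.40 in *glct2* that did not pass the test (adjusted p = 0.0816). *PMEI6*, known from seed coat mucilage, was at 3.05 ± 0.973 FPKM in the overexpressor and 1.56 ± 0.459 FPKM in wild types (SD, n = 4 each), and the log2 fold change was 0.64 (adjusted p = 0.0178). Its libraries overlapped, and without replicate 3 of the overexpressor or replicate 4 of wild types the adjusted p was 0.0543 to 0.055.

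*PMEI11* was at 1.25, 2.73, 1.85 and 1.69 FPKM in the overexpressor, 4.79, 4.41, 5.37 and 5.81 FPKM in *glct2* and 3.81, 2.63, 4.59 and 3.88 FPKM in wild types. It was low in the overexpressor, where only replicate 2 reached the lowest wild-type library. The log2 fold change was -0.72 against wild types (adjusted p = 0.00379) and -1.10 against *glct2* (adjusted p = 0.000418). *PMEI7*, an inhibitor of PME3 *in vitro*, was at 5.28 ± 1.76 FPKM in the overexpressor, 7.32 ± 0.791 FPKM in *glct2* and 5.88 ± 0.520 FPKM in wild types (SD, n = 4 each) and was not called.

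Set directly against *glct2*, the overexpressor was higher in 6 of 56 members (10.7%) and lower in 15 (26.8%), whereas 15.9% of all tested genes were higher and 17.7% lower. The median log2 fold change of the members was -0.12, against 0.00 for all tested genes. Besides *PAE2* (2.66, adjusted p = 3.49e-05), *ADPG2*, *PME17* and *PME31*, the higher members were *PME64* and *PAE5*. *PME64* was at 6.77, 7.03, 7.32 and 6.71 FPKM in the overexpressor, 4.05, 4.86, 3.61 and 5.27 FPKM in *glct2* and 4.94, 5.96, 6.28 and 5.73 FPKM in wild types. It was higher in the overexpressor than in *glct2* without overlap (0.56, adjusted p = 0.00134), with wild types in between. For *PAE5* the difference was 0.16 (adjusted p = 0.0287). With the replicate number as a block in a fit of these 2 lines alone, whose same-numbered libraries deviated together, 8 of 53 members were higher and 17 lower, whereas of all tested genes 13.4% were higher and 15.7% lower. There *At1g48100* (adjusted p = 0.0222), *At3g09540* (adjusted p = 0.0166) and *PME68* (adjusted p = 0.00454) were called higher as well, and *At4g24780* (adjusted p = 0.0334), *At5g48900* (adjusted p = 0.0171) and *PGL3* (adjusted p = 0.0408) lower. The call of *PAE5* was lost (adjusted p = 0.0707), and *At5g04310* was not tested there. With the block in the fit of all 3 genotypes, *At1g48100*, *At3g09540*, *At5g55720* and *PME6* were called higher (adjusted p = 0.00665 to 0.05). In the fit of the 2 lines alone *At5g55720* was not called (adjusted p = 0.052) and *PME6* was not tested.

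**Figure D4:**
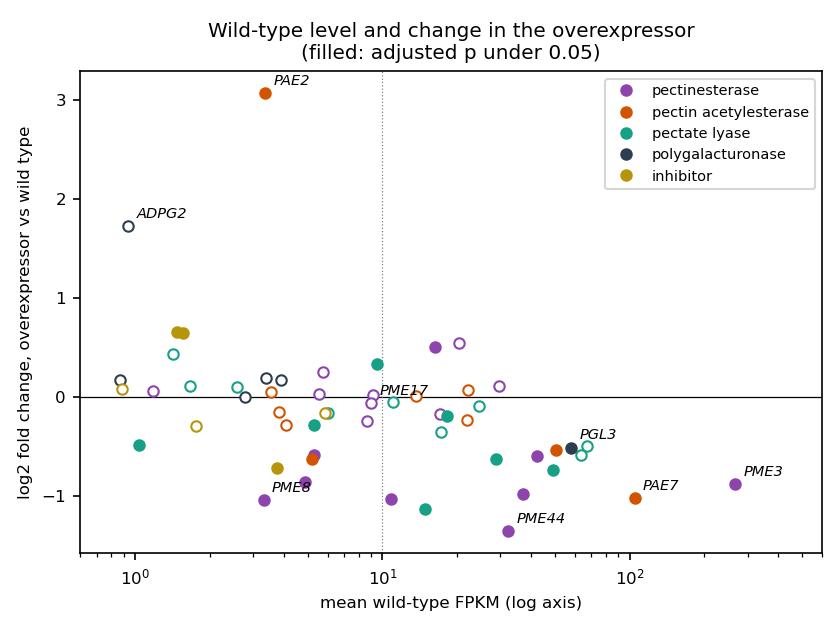
Mean wild-type FPKM (horizontal log axis) and log2 fold change in the overexpressor against wild types (vertical axis) of the 56 tested members, coloured by class. Filled points have an adjusted p under 0.05 and the dotted line marks 10 FPKM. To its right 12 of 24 members fell and 1 rose, while 25.8% of all tested genes there were lower and 16.2% higher.

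Other genes of pectin metabolism were counted in the same way, in lists chosen with earlier results of these data known. For these and the following lists, the shares over all tested genes in the overexpressor against wild types were 19.9% lower and 18.7% higher. Homogalacturonan is made by galacturonosyltransferases of the GAUT family and methylated in the Golgi apparatus. Of 17 such genes, 0 were higher and 9 lower in the overexpressor than in wild types (median log2 fold change -0.25), and 0 were called in *glct2*. The lower ones include *CGR2*, at 56.6 FPKM in the overexpressor and 78.2 FPKM in wild types (-0.46, adjusted p = 0.00111), *GAUT13* (-0.34, adjusted p = 0.000757), *GAUT4* (-0.36, adjusted p = 0.00133) and *QUA2* (-0.43, adjusted p = 0.0025). *GAUT1* and *QUA1* (-0.18 and -0.13) were not called. Of 9 genes that make UDP-glucuronic acid, UDP-galacturonic acid or UDP-rhamnose, *RHM3* fell (-0.36, adjusted p = 0.00499) and the others were not called in either mutant.

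Of 8 genes for the sensing of pectin and the oxidation of its fragments, 6 were tested and 4 of these fell in the overexpressor. The wall-associated kinase genes *WAK1*, *WAK2* and *WAK3*, whose products bind pectin, averaged 89.0, 23.9 and 2.77 FPKM in the overexpressor and 200.3, 55.8 and 12.7 FPKM in wild types. Their log2 fold changes were -1.16 (adjusted p = 2.2e-05), -1.24 (adjusted p = 0.000233) and -1.82 (adjusted p = 0.000664). The receptor kinase gene *FER* fell by 0.40 (adjusted p = 0.00024). The 3 subtilase genes listed for the processing of pectinesterases, *SBT6.1*, *SBT3.5* and *SBT1.7*, were not called in either mutant.

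A further 51 genes are described as inhibitors of pectinesterase or invertase without one of the words used to choose the members. Of these, 10 were tested, and 1 was higher and 4 lower in the overexpressor. *At3g17130* averaged 13.6 FPKM in the overexpressor and 4.78 FPKM in wild types (log2 fold change 1.31, adjusted p = 0.000134), and *At5g62360* 1.47 FPKM in the overexpressor and 5.54 FPKM in wild types (-1.44, adjusted p = 0.000223). Of 6 rhamnogalacturonan lyases, which cut the branched pectin, 1 was tested and was not called.

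Markers of leaf tissues moved as well in the overexpressor. The mesophyll gene *LHCB1.1* was lower (-2.08, adjusted p = 0.000684), *GLDP1* was higher (0.53, adjusted p = 0.0225) and *RBCS1A* was not called. Of 2 phloem markers 1 was higher, and of 3 guard cell markers 1 was lower. The 5 xylem markers summed to 24.1 to 61.1 FPKM in the overexpressor, 18.1 to 38.2 FPKM in *glct2* and 34.8 to 42.8 FPKM in wild types, and 0 of them were called in either mutant against wild types, while 3 were higher in the overexpressor than in *glct2*. The part of tissue composition in the changes of the members was not tested.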

How the data were processed

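Leaf mRNA was measured in 12 libraries, 4 per genotype. The authors deposited FPKM per gene and library; the submitters' processing notes list the tools StringTie 1.3.3, HISAT2 2.0.5 and fastp with build TAIR10, while annotation and strand setting are not given in the sources used here. When multiplied by gene length, 100% of the values above 0 were whole multiples of a step specific to the library (tolerance 0.01), taken as recovered reads. The 3 columns of means were not used. Values were log2(FPKM + 1), so that fold changes of low genes are understated, and genes reaching 1 FPKM in 4 or more libraries entered a single fit of the 3 genotypes with limma 3.58.1 in R 4.3.3 (eBayes with trend, Benjamini-Hochberg adjustment over 18354 genes, threshold 0.05); recovered reads were tested by limma's voom with trimmed-mean (TMM) scaling. Log2 fold changes compare the group means of these values. No source names a test for these data.

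Members and gene lists were chosen with earlier results of these data known. Named members are the 8 largest rises and 8 largest falls called in each mutant, the 4 largest each way between the mutants, the 4 most abundant of each class and members of known role; from each list up to 4 called genes were named. Same-numbered libraries of the overexpressor and *glct2* deviated together from their group means (r = 0.119 to 0.184 across genes, each highest with its own number), so their comparison was also fitted with a replicate block. Those of wild types and the mutants did so only in part (r = -0.329 to 0.328). They were highest with their own number for replicate 1 of both mutants (r = 0.149 and 0.280) and replicate 4 of *glct2* (r = 0.328). The procedure was tested on simulated data. Sequences are from RefSeq's TAIR10.1 assembly, in which all 125 members have the same start and end as in the table. Tables and figures were made with python 3.11.15, pandas 2.3.3, numpy 2.4.6 and matplotlib 3.10.9.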

Additional observations from a re-analysis of the deposited data

Results flagged for a closer look

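In 4 of 108 combinations of a named member and a genotype, 1 of the 4 libraries lay far from the other 3 by Dixon's criterion; chance alone gives about 1 in 20. *PME8* was at 0.62 FPKM in replicate 2 of the overexpressor and at 1.21 to 1.3 FPKM in the other 3. *PME31* was at 18.6 FPKM in replicate 3 of *glct2* and at 16.6 to 16.9 FPKM in the other 3. Replicate 2 of wild types was low for *PAE7*, with 87.6 FPKM against 109.7 to 111.1 FPKM, and for *PME3*, with 231 FPKM against 277 to 283 FPKM. No member was called in opposite directions in the overexpressor and in *glct2*.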

How the results depend on the processing

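The comparisons were repeated with pseudocounts of 0.1 and 5, without the filter, with a filter at 5 FPKM, with median-of-ratios, quantile and top-50 rescaling, with a replicate block, with the 2 groups alone, with library quality weights, with voom and without each library. In all of these 18 of the 20 named members called in the overexpressor against wild types kept their call wherever they were tested; the exceptions were *PMEI6* and *At3g09540*. In the comparison with *glct2*, 17 of 19 kept it, except *ADPG2* and *PAE5*, and in *glct2* against wild types *PME8* kept it and *PME17* did not. No named member reversed its direction, where a sign change of an uncalled member was counted only if both values exceeded their standard errors. Members lower in the overexpressor than in wild types were 18 to 23 with libraries left out, while 17.0 to 20.9% of all tested genes were lower. Members higher were 4 to 7 with libraries left out, against 2665 of 18299 to 3550 of 18191 tested genes. With the filter at 5 FPKM, where 36 members were tested, 3 were higher, against 2593 of all 13676 tested genes. With a minimum absolute log2 fold change of 1, 5 members were lower and 1 higher. For this minimum fold no share over all tested genes was computed. Members lower in *glct2* than in wild types were 1 to 3 with libraries left out and 1 with a pseudocount of 5, without the filter, with the filter at 5 FPKM, with voom and with the minimum fold; members higher were 0 to 1 with libraries left out and 1 with library quality weights (*PMEI9*). Between the overexpressor and *glct2*, 15 to 21 members were lower and 4 to 7 higher with libraries left out. Of all tested genes 14.6 to 19.4% were then lower, and 2228 of 18244 to 3255 of 18191 higher. With the minimum fold 5 members were lower and 3 higher. The causes were not tested. With the replicate block, 19 members were lower and 7 higher in the overexpressor than in wild types. Of all tested genes 18.8% were lower and 3208 of 18354 higher. Against *glct2* the block gave 15 members lower and 9 higher, while 16.3% of all tested genes were lower and 2673 of 18354 higher. A block over the overexpressor and *glct2* alone gave 17 members lower and 8 higher. Of all tested genes 15.7% were lower and 13.4% higher there. That fit was chosen after seeing the data, like the joint omission of both replicates 2. At this depth members below about 1 FPKM were not tested, and the low calls in *glct2* rest on few members.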
